A study of Mus musculus with 14 samples.

Results

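The genes described here code for phase I enzymes of xenobiotic metabolism in the mouse cornea: the cytochrome P450 families Cyp1 to Cyp4, the flavin monooxygenases (Fmo), the alcohol dehydrogenases (Adh), the aldo-keto reductases of family 1 (Akr1), the carboxylesterases (Ces) and the epoxide hydrolases Ephx1 and Ephx2. They were chosen by gene symbol alone, from probe sets annotated to 1 gene, which gave 92 of the 18194 genes on the array. RNA was measured on Affymetrix GeneChip mouse arrays in 3 Klf5CN and 3 WT corneal samples at postnatal day 11 (PN11; PN gives the age in days after birth), just before the eyelids open, and in 4 Klf5CN and 4 WT samples at PN56, in young adults. Klf5CN mice were Klf5 loxP/loxP with 1 copy of the Le-Cre transgene, and the controls called WT were littermates that were Klf5 loxP/loxP without Cre, so all groups carried the floxed allele, on a mixed background. No group carried Cre without the floxed allele. Le-Cre is active in cells that derive from the surface ectoderm, which include the corneal epithelium but neither the stroma nor the endothelium, whereas the whole cornea, cut at the limbus, was measured. Both corneas of a mouse were pooled, so each array is 1 mouse.

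Phase I enzymes oxidise, reduce or hydrolyse foreign and endogenous compounds, which makes many of them more polar and opens sites for the phase II enzymes that conjugate them to glutathione, sulfate or glucuronic acid. P450s need electrons that P450 oxidoreductase passes on, and many are switched by ligand-activated receptors such as Ahr. In the cornea the epithelium is the first layer that meets toxicants, drugs given as eye drops and ultraviolet light, and ester drugs in eye drops rely on corneal esterases for their activation. Klf5 is a Krüppel-like transcription factor of epithelia, whose zinc fingers bind GC-rich and CACCC elements.

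Deletion of Klf5 was visible in the labelled groups. Of the 3 Klf5 probe sets, 1 averaged 5.31 in Klf5CN and 10.27 in WT at PN56, and 6.92 in Klf5CN and 10.31 in WT at PN11 (log2 signal, used throughout). A different Klf5 probe set moved little, at 9.11 in Klf5CN and 9.45 in WT at PN56. It is the brightest of the 3 on average, and genes are read here by their brightest tested probe set. Read in this way, Klf5 differed by -0.83 at PN11 and -0.34 at PN56 (limma, adjusted p = 0.0496 and 0.287) and passed at neither age. The brightest probe set can therefore miss a change that another probe set of the gene shows. Array medians lay between a signal of 25.9 and 35.2, and the log2 ratio of the 3-prime to the 5-prime Actb control probe set, a sign of RNA quality, reached 1.62 in Klf5CN but at most 0.45 in either WT group. Its part in the results was not tested beyond adding it to the fit. Many immune cell markers were higher in Klf5CN. All 5 neutrophil genes tested passed at both ages, 11 of 15 macrophage and myeloid genes at PN11 and 13 at PN56, 2 of 7 T and B cell genes at PN11 and 5 at PN56, and 0 of 7 mast cell genes at PN11 and 4 at PN56. Corneal endothelial markers went the other way at PN56, where 2 of 6 were lower, with a median difference of -0.74, and their summed signal was 5465 to 10139 in Klf5CN and 12848 to 13935 in WT. Their part in the lower phase I genes at PN56 was not tested. Corneal epithelial markers were strong everywhere, and of 11 tested, 2 (Dsg1a and Upk1b) were lower at PN11 and 1 (Dsg1a) at PN56. Krt12, the corneal epithelial keratin, averaged 12.89 in Klf5CN and 12.84 in WT at PN11, and 13.07 in Klf5CN and 12.85 in WT at PN56. In RNA from whole corneas, fewer cells of a type and less RNA per cell cannot be told apart.

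Of the 92 genes, 46 exceeded a signal of 20 on at least 3 arrays with at least 1 probe set and were tested. The other 46 stayed below that filter, and 30 of these had no Present call, the software's call of detection, on any array. By family, 26 of 35 Cyp2 genes and 4 of 5 Cyp3 genes, many of them known from liver, were not tested, against 0 of 4 Fmo genes and 1 of 6 Adh genes. Of the tested genes, 4 passed through 1 group only, and such a gene had to differ between groups, whereas 30 exceeded 20 on at least 3 arrays of every group.

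**Figure D1:**
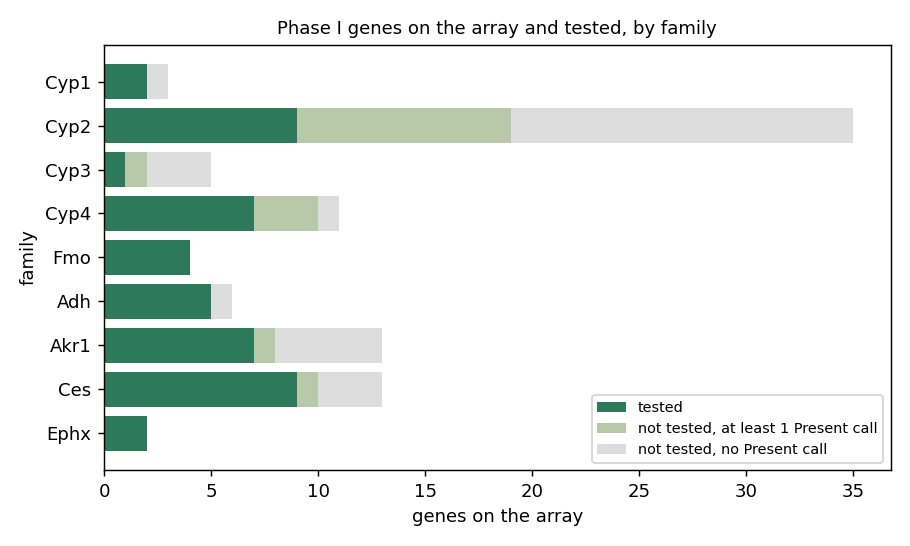
Number of phase I genes on the array (x axis) in each family (y axis), split into genes that were tested, genes that were not tested but had at least 1 Present call, and genes with no Present call. Of 92 genes 46 were tested, and 26 of the 35 Cyp2 genes were not.

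Without Klf5 the phase I genes that passed the test were nearly all lower. A gene was called at an adjusted p below 0.05 (limma, two-sided, over all probe sets tested) and a difference of more than 2-fold. At PN11, 8 of the 46 tested genes were lower and 0 higher in Klf5CN than in WT, where 1.48% of the 13660 genes tested were lower and 3.80% higher. At PN11, 25 of the 46 had an unadjusted p under 0.05 (limma). That share was not counted over all genes tested, where many p-values were small: an unadjusted p of 0.0464 had an adjusted p of 0.238. At PN56, 8 were lower and 2 higher, against 1.63% and 7.10% of genes tested. The median difference over the 46 genes was -0.48 at PN11 and -0.32 at PN56 on the log2 scale, beside 0.00 and 0.02 over all genes tested. Among the 30 genes above the filter in every group, 6 were lower and 0 higher at PN11, where 1.37% and 2.35% of the 10788 such genes were, and 7 were lower and 1 higher at PN56, against 1.51% and 4.24%. Every Klf5CN array lay below every WT array for 23 of the 46 genes at PN11 and for 11 at PN56, beside 16.5% and 10.4% of all genes tested. At both ages 5 genes were lower, Ces1d, Adh6b, Cyp2b19, Akr1c13 and Cyp3a13, from 5 different families, and 11 were lower at either age. The shares of all genes tested that were lower at both ages or at either age were not counted, so these 2 counts have no comparison. Of the 11 genes, Cyp2b19 and Ces1e passed the filter through WT groups only, so the filter favoured their direction. The comparisons at the 2 ages share no array, though they share 1 estimate of the spread. The p-values measure the spread between these mice. Leaving out 1 array at a time gave 5 to 11 lower genes at PN11, 5 of them without Klf5CN replicate 1 or WT replicate 1 or 2 of that age. At PN56 it gave 5 to 12, with 5 without Klf5CN replicate 1 or WT replicate 1 of that age.

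**Figure D2:**
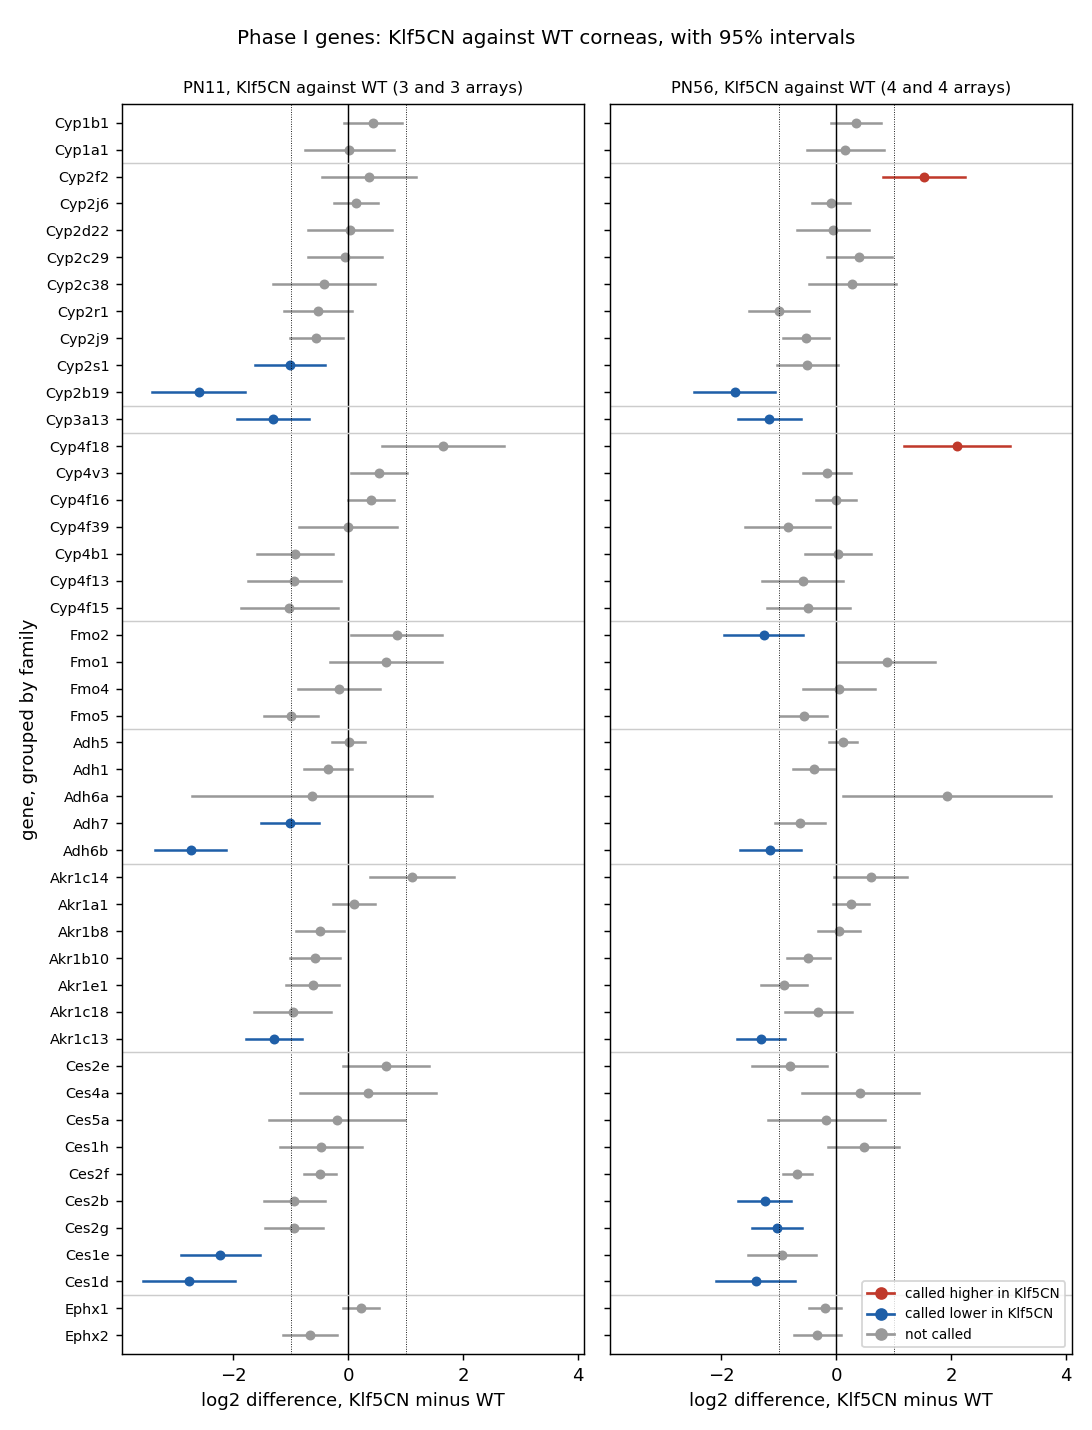
Difference between Klf5CN and WT (x axis, log2) for each of the 46 tested phase I genes (y axis, by family) at PN11 on the left and PN56 on the right. Points are differences of group means and lines their 95% intervals from the fit; dotted lines mark 2-fold. Called genes lie on the lower side in both panels except for Cyp4f18 (2.10) and Cyp2f2 (1.53) at PN56.

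The promoters of genes that were lower in Klf5CN are shown because Klf5 binds CACCC elements. Of the 11 genes lower at either age, 8 have a promoter of 300 bases in RefSeq on GRCm38.p6, from 250 bases before to 50 after the start, with 9 promoters in all. The 3 with a promoter among the 5 genes lower at both ages are printed, with Ces1e, which was lower at PN11 only. The promoters of the other genes lower at a single age are not printed. Sequences run 5′ to 3′ along the gene, and capitals mark CACCC or, on the other strand, GGGTG. The printed promoters are Cyp3a13 at chr5:137921570-137921869 (minus strand), Cyp2b19 at chr7:26756892-26757191 (plus strand), Akr1c13 at chr13:4190937-4191236 (plus strand) and Ces1e at chr8:93229570-93229869 (minus strand).
Cyp3a13: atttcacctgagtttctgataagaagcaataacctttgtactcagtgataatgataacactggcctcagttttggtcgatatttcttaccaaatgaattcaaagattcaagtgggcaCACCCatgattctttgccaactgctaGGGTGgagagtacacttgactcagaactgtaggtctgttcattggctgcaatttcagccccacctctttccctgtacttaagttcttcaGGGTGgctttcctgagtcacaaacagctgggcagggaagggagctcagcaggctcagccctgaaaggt
Cyp2b19: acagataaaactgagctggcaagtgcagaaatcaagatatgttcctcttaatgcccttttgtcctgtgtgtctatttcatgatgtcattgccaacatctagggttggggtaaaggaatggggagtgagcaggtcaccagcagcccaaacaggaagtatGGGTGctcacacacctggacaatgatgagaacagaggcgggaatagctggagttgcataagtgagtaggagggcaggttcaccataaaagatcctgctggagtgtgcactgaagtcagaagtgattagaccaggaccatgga
Akr1c13: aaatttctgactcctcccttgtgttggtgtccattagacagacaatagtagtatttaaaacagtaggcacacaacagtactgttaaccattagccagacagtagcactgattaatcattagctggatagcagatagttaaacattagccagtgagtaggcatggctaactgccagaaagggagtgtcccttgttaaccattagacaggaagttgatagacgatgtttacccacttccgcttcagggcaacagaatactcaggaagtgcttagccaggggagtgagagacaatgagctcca
Ces1e: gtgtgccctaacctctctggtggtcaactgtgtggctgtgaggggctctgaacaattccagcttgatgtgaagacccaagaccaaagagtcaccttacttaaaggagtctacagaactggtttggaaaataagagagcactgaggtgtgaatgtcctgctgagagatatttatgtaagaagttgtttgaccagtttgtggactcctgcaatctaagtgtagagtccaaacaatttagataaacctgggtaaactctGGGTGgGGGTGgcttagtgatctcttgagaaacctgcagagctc
Cyp3a13 holds 3 matches, Cyp2b19 1, Ces1e 2 and Akr1c13 0. The Ces1e matches begin 6 and 12 bases after the start, whereas those of Cyp3a13 and Cyp2b19 lie before it.

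Read on both strands, CACCC occurred in 7 of the 9 promoters of genes lower at either age, in 25 of the 42 promoters of 40 tested phase I genes, and in 57.5% of all 32851 promoters in the table. The longer GC-box pattern CCNCNCCC, which can overlap a CACCC match, occurred in 2 of the 9 (Ces1e and Cyp2s1), in 21 of the 42 and in 49.5% of all. The core of the Ahr response element, GCGTG, occurred in 1 of the 9 (Adh7), in 11 of the 42 and in 32.4% of all. The Nrf2 core TGACNNNGC occurred in 0 of the 9, in 4 of the 42 and in 12.4% of all. These letter matches describe the windows and are no evidence of binding.

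Among the P450s, Cyp2b19, a keratinocyte enzyme that epoxidises arachidonic acid in mouse skin, had the largest fall at PN11 and PN56 among probe sets with 1 symbol. Its PN11 signals were 3.54, 3.81 and 3.70 in Klf5CN, against 6.52, 6.48 and 5.87 in WT. At PN56 they were 4.08, 3.62, 3.32 and 3.32 in Klf5CN, against 6.05, 6.0, 4.84 and 4.54 in WT. The groups did not overlap at either age, and the Klf5CN values lay at or just above the floor of 3.32, with a Present call on 1 of 3 Klf5CN arrays at PN11 and 2 of 4 at PN56. The difference was -2.61 ± 0.38 (SE) at PN11, with an adjusted p of 0.00124, and at PN56 it was -1.77 ± 0.33 with an adjusted p of 0.00241 (limma). With signals under 32 set to 32, the PN56 call was lost. Cyp2b19 passed the filter through the WT groups only, so the direction of its differences was favoured by the filter.

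Cyp3a13, the one tested gene of the drug-metabolising Cyp3a family, had PN11 signals of 7.15, 7.41 and 7.89 in Klf5CN, against 8.96, 8.80 and 8.63 in WT. Its PN56 signals were 7.97, 8.11, 9.38 and 8.06 in Klf5CN, against 9.71, 9.61, 9.36 and 9.51 in WT. Of 4 Klf5CN arrays, 3 were low at PN56, while replicate 3 reached the lowest WT array. The difference was -1.31 ± 0.30 at PN11 (adjusted p = 0.0164) and -1.17 ± 0.26 at PN56 (adjusted p = 0.00699), limma. The PN11 call was lost on leaving out Klf5CN replicate 1 or 2 or WT replicate 1 or 2, with differences between -1.31 and -1.15 and adjusted p between 0.0523 and 0.0805.

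Cyp2s1, a P450 of surface epithelia that is induced through Ahr, was lower at PN11 by a margin at the threshold. Its PN11 signals were 6.26, 7.18 and 7.16 in Klf5CN, against 8.14, 7.81 and 7.69 in WT, a difference of -1.02 ± 0.29 (limma, adjusted p = 0.0499). At PN56 the difference was -0.50 (adjusted p = 0.193). Leaving out any of 9 single arrays ended the PN11 call (adjusted p 0.0560 to 0.205): Klf5CN replicates 1 and 2 and WT replicates 1, 2 and 3 of PN11, and Klf5CN replicate 1 and WT replicates 1, 2 and 3 of PN56. Cyp2r1, a vitamin D 25-hydroxylase, was lower at PN56 by -1.0 (adjusted p = 0.0123), just short of 2-fold.

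Cyp4f18 and Cyp2f2 were the 2 phase I genes that were higher in Klf5CN. Cyp4f18, which hydroxylates leukotriene B4 in mouse neutrophils, had PN56 signals of 6.50, 6.0, 4.63 and 5.23 in Klf5CN, against 3.32, 3.32, 3.98 and 3.32 in WT. At PN11 they were 5.29, 6.26 and 4.15 in Klf5CN, against 3.32, 3.46 and 3.95 in WT. No Klf5CN array lay within the WT range at either age, and WT was at the floor on 3 of 4 arrays at PN56. Cyp4f18 passed the filter through the PN56 Klf5CN group only. Such a gene had to differ between groups, so the direction of its PN56 difference was favoured by the filter. The difference was 2.10 ± 0.43 at PN56 (limma, adjusted p = 0.00462) and 1.65 ± 0.50 at PN11 (adjusted p = 0.0673). With signals under 32 set to 32, the PN56 call was lost (0.68, adjusted p = 0.210). The summed signal of the 5 neutrophil markers on the array was 2064 to 8173 in Klf5CN and 120 to 1017 in WT at PN56, and 2487 to 4236 in Klf5CN and 190 to 331 in WT at PN11. The part of these cells in the Cyp4f18 values was not tested.

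Cyp2f2, known in the mouse for activating naphthalene in airway club cells, had PN56 signals of 9.85, 8.96, 8.38 and 10.35 in Klf5CN, against 8.26, 7.88, 8.01 and 7.25 in WT. The lowest Klf5CN array lay just above the highest WT array. The difference was 1.53 ± 0.33 at PN56 (limma, adjusted p = 0.00648) and 0.36 ± 0.39 at PN11 (adjusted p = 0.666). Of the 13 keratocyte and stromal markers, 4 (Aspn, Col1a1, Col1a2 and Col3a1) were higher in PN56 Klf5CN and 0 lower, and their summed signal was 8340 to 43202 in Klf5CN and 8161 to 12392 in WT. Their part in the Cyp2f2 values was not tested. Fitted on the PN56 groups alone, the Cyp2f2 call was lost (adjusted p = 0.0523).

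The remaining tested P450s passed at neither age. In Cyp1 the differences of Cyp1b1 were 0.43 at PN11 (limma, adjusted p = 0.327) and 0.34 at PN56 (adjusted p = 0.284). Cyp1a1, the classical Ahr target, had 0.02 and 0.16. It lay near the floor, at no more than 4.58 on any array, and had no Present call at PN56. Its differences therefore do not show whether its expression changed. In Cyp4, Cyp4f16 had 0.40 at PN11 and -0.01 at PN56. Cyp4f15 and Cyp4b1 had PN11 differences of -1.02 (adjusted p = 0.153) and -0.93 (adjusted p = 0.0985). Cyp2d22 was at 0.03 and -0.06, with 95% intervals of -0.69 to 0.76 at PN11 and -0.69 to 0.57 at PN56.

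Alcohol dehydrogenases oxidise alcohols, retinol among them, and the genes lie in 1 run on chromosome 3 in the order Adh7, Adh1, Adh6a, Adh6b, Adh4 and Adh5 (RefSeq, GRCm38.p6). Adh6b, of class V, had PN11 signals of 6.57, 6.85 and 6.39 in Klf5CN, against 9.65, 9.49 and 8.92 in WT. At PN56 they were 7.96, 8.38, 9.22 and 8.24 in Klf5CN, against 10.06, 9.58, 9.26 and 9.48 in WT. The groups were more than 2 log2 units apart at PN11, and nearly met at PN56, where Klf5CN replicate 3 came just under the lowest WT array. The difference was -2.75 ± 0.29 at PN11 (limma, adjusted p = 9.76e-05) and -1.15 ± 0.25 at PN56 (adjusted p = 0.00628). Leaving out Klf5CN replicate 1 or WT replicate 1 of PN56 took the PN56 difference under 2-fold (-0.98 and -0.99).

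Adh7, the class IV enzyme of epithelia that oxidises retinol, had PN11 signals of 9.21, 8.88 and 9.81 in Klf5CN, against 10.43, 10.43 and 10.07 in WT. The groups did not overlap, and the difference was -1.02 ± 0.24 at PN11 (limma, adjusted p = 0.0189) and -0.63 ± 0.20 at PN56 (adjusted p = 0.0503). Its other probe set gave -1.39 and -0.89. Without Klf5CN replicate 1 or 2 or WT replicate 1 or 2, the PN11 call was lost (adjusted p 0.0661 to 0.0886). The neighbours Adh1, the ethanol-oxidising class I enzyme, and Adh5, which clears formaldehyde with glutathione, were not called. Adh1 differed by -0.36 (95% interval -0.78 to 0.06) and -0.39 (-0.76 to -0.03) at PN11 and PN56, and Adh5 by 0.01 (-0.28 to 0.29) and 0.12 (-0.13 to 0.36). The Klf5CN arrays of Adh1 all lay below WT at PN11. Adh6a, next to Adh6b, had PN56 signals of 8.89, 9.94, 9.14 and 9.24 in Klf5CN, against 8.60, 8.44, 7.79 and 4.64 in WT. Every Klf5CN array was above WT, with 1 WT array far below the others, and the difference of 1.94 ± 0.85 was not called (limma, adjusted p = 0.141). At PN11 its difference was -0.63 (adjusted p = 0.790).

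Aldo-keto reductases reduce aldehydes and ketones, steroids included. Akr1c13, an alcohol dehydrogenase for xenobiotics and hydroxysteroids, had PN11 signals of 6.47, 6.51 and 6.45 in Klf5CN, against 7.75, 7.70 and 7.87 in WT. At PN56 they were 6.77, 6.96, 7.86 and 7.68 in Klf5CN, against 8.65, 8.62, 8.61 and 8.64 in WT. The WT arrays hardly differed at PN56, and the 4 Klf5CN arrays formed a wider group entirely under them. The difference was nearly equal at the 2 ages, -1.29 ± 0.23 at PN11 (limma, adjusted p = 0.00401) and -1.31 ± 0.20 at PN56 (adjusted p = 0.000544), and kept its call in every alternative run.

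The neighbours of Akr1c13 in its run on chromosome 13 differed in sign. Akr1c18, which inactivates progesterone, had -0.97 at PN11 (adjusted p = 0.0865), and Akr1c14, a hydroxysteroid dehydrogenase, had 1.11 (adjusted p = 0.0720). Akr1e1 was -0.91 at PN56 (adjusted p = 0.00471), short of 2-fold. Akr1a1, the general aldehyde reductase with 4 tested probe sets, differed by 0.11 (95% interval -0.26 to 0.48) at PN11 and 0.25 (-0.06 to 0.57) at PN56. Akr1b8 and Akr1b10 were not called at either age.

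Carboxylesterases, which cleave ester drugs and lipid esters, held the gene with the largest difference at PN11 among probe sets with 1 symbol. Ces1d, an esterase and triglyceride hydrolase of liver and fat, had PN11 signals of 6.37, 7.54 and 7.21 in Klf5CN, against 9.87, 9.53 and 10.04 in WT. At PN56 they were 7.80, 8.63, 9.28 and 8.48 in Klf5CN, against 10.36, 10.41, 9.82 and 9.21 in WT. The groups were well apart at PN11 and just overlapped at PN56. The difference was -2.77 ± 0.37 at PN11 (limma, adjusted p = 0.000745) and -1.40 ± 0.32 at PN56 (adjusted p = 0.00925). Its other probe sets gave -3.10 and -2.79 at PN11 and -1.84 and -2.07 at PN56, all past the thresholds.

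Ces1e, known as egasyn, which holds beta-glucuronidase in the endoplasmic reticulum, lies next to Ces1d on chromosome 8. Its PN11 signals were 3.32, 3.32 and 3.35 in Klf5CN, against 5.45, 5.74 and 5.50 in WT. At PN56 they were 4.16, 4.49, 5.68 and 4.31 in Klf5CN, against 5.83, 5.50, 5.40 and 5.71 in WT. Klf5CN was at the floor at PN11, with 1 Present call on 3 arrays, and replicate 3 was within the WT range at PN56. The difference was -2.23 ± 0.32 at PN11 (limma, adjusted p = 0.00116), which vanished from the calls with signals under 32 set to 32 (-0.56). At PN56 it was -0.95 ± 0.28 (limma, adjusted p = 0.0318), short of 2-fold. Ces1e also passed the filter through the WT groups only, which favoured a lower value in Klf5CN. The further genes of that run on chromosome 8 gave PN11 differences of -0.48 (Ces1h) and -0.20 (Ces5a), neither called.

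The Ces2 genes, esterases known best from intestine, form a separate run on chromosome 8. Ces2b had PN56 signals of 5.77, 6.39, 6.22 and 7.01 in Klf5CN, against 7.65, 7.41, 7.81 and 7.49 in WT, a difference of -1.24 ± 0.22 (limma, adjusted p = 0.00158). Ces2g had PN56 signals of 8.33, 8.43, 9.22 and 8.99 in Klf5CN, against 9.91, 9.80, 9.57 and 9.81 in WT, a difference of -1.03 ± 0.20 (adjusted p = 0.00371). Neither pair of groups overlapped. At PN11 both had a difference of -0.94 (adjusted p = 0.0387 for Ces2b and 0.0281 for Ces2g), under 2-fold, so the lists of the 2 ages differ here through the minimum fold. Ces2f was lower by less at both ages, -0.49 and -0.68 (adjusted p = 0.0413 and 0.00132). Leaving out Klf5CN replicate 1 or 2 or WT replicate 1 of PN56 took Ces2g under 2-fold (-0.98 to -0.89).

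Flavin monooxygenases add oxygen to nitrogen and sulfur atoms of drugs. Fmo2, the lung form, gave opposite signs at the 2 ages. Its PN56 signals were 4.45, 5.35, 4.78 and 4.27 in Klf5CN, against 6.35, 6.69, 5.68 and 5.20 in WT. At PN11 they were 7.76, 8.03 and 7.14 in Klf5CN, against 6.82, 7.09 and 6.50 in WT. Klf5CN lay above WT at PN11 and mostly below it at PN56, with 1 overlapping pair. The difference was -1.26 ± 0.32 at PN56 (limma, adjusted p = 0.0160) and 0.84 ± 0.37 at PN11 (adjusted p = 0.217).

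The difference between these Fmo2 effects, PN56 minus PN11, was -2.10 ± 0.49 and missed the threshold (adjusted p = 0.0858). The other 3 tested Fmo2 probe sets gave -0.34, -0.74 and -1.57 at PN56, 1 of them called, and 0.82, 0.92 and 0.21 at PN11. Leaving out Klf5CN replicate 1 or WT replicate 1 or 2 of PN56 ended the PN56 call (adjusted p 0.0506 to 0.0593). Fmo5 was lower by -1.0 at PN11 (adjusted p = 0.0149), just short of 2-fold, and by -0.57 at PN56 (adjusted p = 0.0596). Its other tested probe sets gave -1.31 (adjusted p = 0.00400, past 2-fold) and -0.70 at PN11, and -0.37 and -0.42 at PN56.

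Epoxide hydrolases open the epoxides that P450s make. Ephx1, the microsomal form, differed by 0.22 (95% interval -0.10 to 0.55) at PN11 and -0.19 (-0.47 to 0.09) at PN56. Ephx2, the soluble form, differed by -0.67 (adjusted p = 0.0955) and -0.33 (adjusted p = 0.267). No epoxide hydrolase passed at either age.

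**Figure D3:**
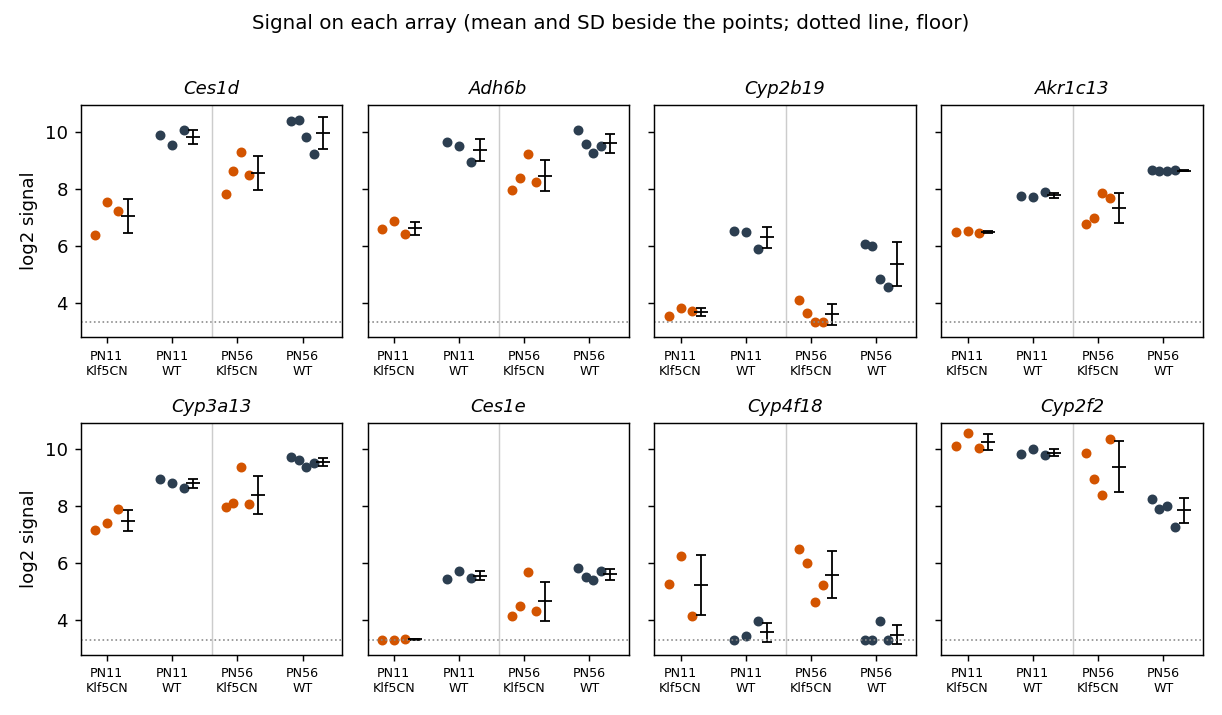
Log2 signal on each array (y axis) for 8 phase I genes, with the Klf5CN and WT groups of each age on the x axis; black bars are the mean and SD of 3 arrays at PN11 and 4 at PN56, and the dotted line is the floor of 3.32. Ces1d, Adh6b, Cyp2b19, Akr1c13, Cyp3a13 and Ces1e are lower in Klf5CN at PN11, and Cyp4f18 and Cyp2f2 are higher at PN56.

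The 2 Klf5CN comparisons were set against each other by an interaction term. Of the 46 tested genes, 0 passed at an adjusted p below 0.05 in either direction (limma). Of all genes tested, 0.286% were higher and 0.278% lower. An unadjusted p under 0.05 was found for 9 of the 46, a share not counted over all genes (an unadjusted p of 0.0491 had an adjusted p of 0.477). The effect on Adh6b was smaller at PN56 by 1.60 ± 0.38 (adjusted p = 0.0895) and on Ces1d by 1.37 ± 0.50 (adjusted p = 0.318). For Ces1e, with PN11 Klf5CN at the floor, no size of change is given (adjusted p = 0.261). Akr1c13 changed by -0.02, with a 95% interval of -0.66 to 0.62.

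Maturation was compared within each genotype, PN56 against PN11. In Klf5CN, 8 tested phase I genes were higher and 5 lower at PN56, against 4.80% and 13.4% of all genes tested. In WT, 3 were higher and 6 lower, against 4.37% and 15.6%, and 1 was higher without PN56 WT replicate 4. The median difference was 0.10 in Klf5CN and 0.04 in WT, beside -0.07 and -0.11 over all genes tested. Each of these comparisons shares its arrays with the Klf5CN comparisons above.

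Fmo1, Cyp1b1, Akr1c14 and Cyp2d22 fell with age in both genotypes. Fmo1 had PN56 signals of 6.95, 7.26, 5.47 and 7.41 against PN11 signals of 9.17, 9.21 and 8.59 in Klf5CN. In WT its PN56 signals were 5.87, 6.32, 6.41 and 4.98 against PN11 signals of 8.22, 8.86 and 7.92. The ages did not overlap in either genotype, and the differences were -2.22 ± 0.43 in Klf5CN (limma, adjusted p = 0.000902) and -2.44 ± 0.43 in WT (adjusted p = 0.000357). Cyp1b1, whose human counterpart is mutated in congenital glaucoma, had PN56 signals of 5.84, 5.65, 5.03 and 5.57 against PN11 signals of 7.91, 7.83 and 8.11 in Klf5CN. In WT its PN56 signals were 5.38, 4.81, 5.57 and 4.97 against PN11 signals of 7.37, 7.63 and 7.56. It fell by nearly the same amount in both, -2.43 ± 0.22 (adjusted p = 1.54e-06) in Klf5CN and -2.34 ± 0.22 (adjusted p = 1.52e-06) in WT.

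Akr1c14 had PN56 signals of 4.26, 4.79, 3.32 and 3.32 against PN11 signals of 6.07, 6.59 and 6.55 in Klf5CN, a difference of -2.48 (limma, adjusted p = 3.27e-05). In WT all 4 PN56 arrays were at the floor with no Present call, against PN11 signals of 4.99, 5.43 and 5.48, so it was at least 3.93-fold lower there (limma, adjusted p = 0.000185). With signals under 32 set to 32, this WT call was lost (-0.30, limma, adjusted p = 0.0969). Akr1c14 passed the filter through the PN11 groups only, so the direction of its falls with age was favoured by the filter. Cyp2d22 fell by 1.62 in Klf5CN (adjusted p = 0.000992) and by 1.53 in WT (adjusted p = 0.00133). Keratocyte and stromal markers moved with these genes: 10 of 13 were lower at PN56 in Klf5CN and 12 of 13 in WT, against 13.4% and 15.6% of all genes tested. Their summed signal was 8340 to 43202 at PN56 against 56217 to 65441 at PN11 in Klf5CN, and 8161 to 12392 at PN56 against 61586 to 68208 at PN11 in WT. Other markers fell too. Of 9 blood and lymph vessel markers, 7 were lower in Klf5CN and 9 in WT. Of 15 macrophage and myeloid markers, 5 were lower in Klf5CN and 11 in WT, with 1 higher in each. Of 11 corneal epithelial markers, 0 were lower in either genotype. The part of any of these cells in the falls was not tested.

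Akr1b8, a reductase of reactive aldehydes, and Cyp2s1 were higher at PN56 in both genotypes. Akr1b8 had PN56 signals of 8.12, 7.94, 8.77 and 8.34 against PN11 signals of 6.61, 6.34 and 6.58 in Klf5CN. In WT its PN56 signals were 8.08, 8.10, 8.40 and 8.42 against PN11 signals of 7.23, 6.94 and 6.85. The ages did not overlap, with differences of 1.78 ± 0.19 in Klf5CN (limma, adjusted p = 5.27e-06) and 1.25 ± 0.19 in WT (adjusted p = 8.91e-05). Cyp2s1 rose by 1.62 in Klf5CN (adjusted p = 0.000279) and by 1.11 in WT (adjusted p = 0.00405), and the WT difference was 0.90 without PN56 WT replicate 4. Ces5a also passed in both, at 1.50 and 1.47 (adjusted p = 0.0320 and 0.0332), on a probe set with a Present call on 5 of 14 arrays. Its Klf5CN call was lost without PN11 replicate 1 or 3 or PN56 replicate 1, 2 or 4 (adjusted p 0.0707 to 0.169). Its WT call was lost without PN11 replicate 1 or 2 or PN56 replicate 2 or 4 (adjusted p 0.0662 to 0.152).

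**Figure D4:**
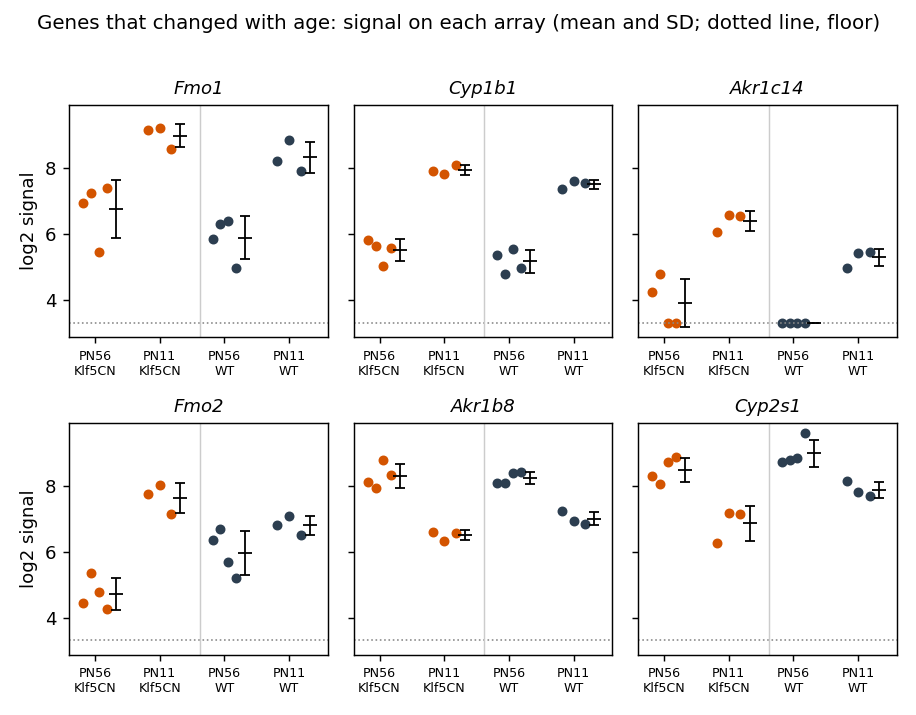
Log2 signal on each array (y axis) for 6 phase I genes that changed with age, with PN56 left of PN11 in Klf5CN and in WT on the x axis; black bars are the mean and SD of 4 arrays at PN56 and 3 at PN11, and the dotted line is the floor of 3.32. Fmo1, Cyp1b1 and Akr1c14 are lower at PN56 in both genotypes, Fmo2 passed in Klf5CN, and Akr1b8 and Cyp2s1 are higher in both.

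Other genes passed in 1 genotype, and the tests of these differences are those of the interaction term given above. In Klf5CN, Adh6b rose by 1.84 ± 0.27 (limma, adjusted p = 9.27e-05) and Ces1d by 1.51 ± 0.35 (adjusted p = 0.00337), while in WT their differences were 0.24 and 0.14. Ces1e was also called (adjusted p = 0.00278), but from PN11 Klf5CN values at the floor. Its call was lost with signals under 32 set to 32 (0.17), with log2 of signal plus 16 (0.85) and without PN56 Klf5CN replicate 3 (0.99). Cyp2c29 and Cyp2c38, P450s that epoxidise fatty acids, rose by 1.11 and 1.03 (adjusted p = 0.00648 and 0.0450), from values near the floor. Cyp2c29 was at 1.0 without PN56 Klf5CN replicate 4. The Cyp2c38 call was lost without any of 8 arrays (adjusted p 0.0509 to 0.127): PN11 Klf5CN replicates 2 and 3, PN11 WT replicates 1, 2 and 3, and PN56 Klf5CN replicates 1, 2 and 3. Fmo2 fell by 2.93 ± 0.35 in Klf5CN (adjusted p = 1.62e-05), against -0.83 in WT (adjusted p = 0.0701), where its probe sets gave values between -0.83 and 0.26.

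In WT, Cyp2f2 had PN56 signals of 8.26, 7.88, 8.01 and 7.25 against PN11 signals of 9.83, 10.01 and 9.78, a difference of -2.02 ± 0.36 (limma, adjusted p = 0.000403). In Klf5CN its difference was -0.85 ± 0.36 (adjusted p = 0.0731), and the interaction, 1.17 ± 0.51, missed the threshold (adjusted p = 0.447). Cyp4f15, which hydroxylates leukotriene B4, fell in WT by 1.23 ± 0.37 (adjusted p = 0.0143), with no Present call at PN56, and by 1.04 without PN11 WT replicate 2 (adjusted p = 0.0708).

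**Figure D5:**
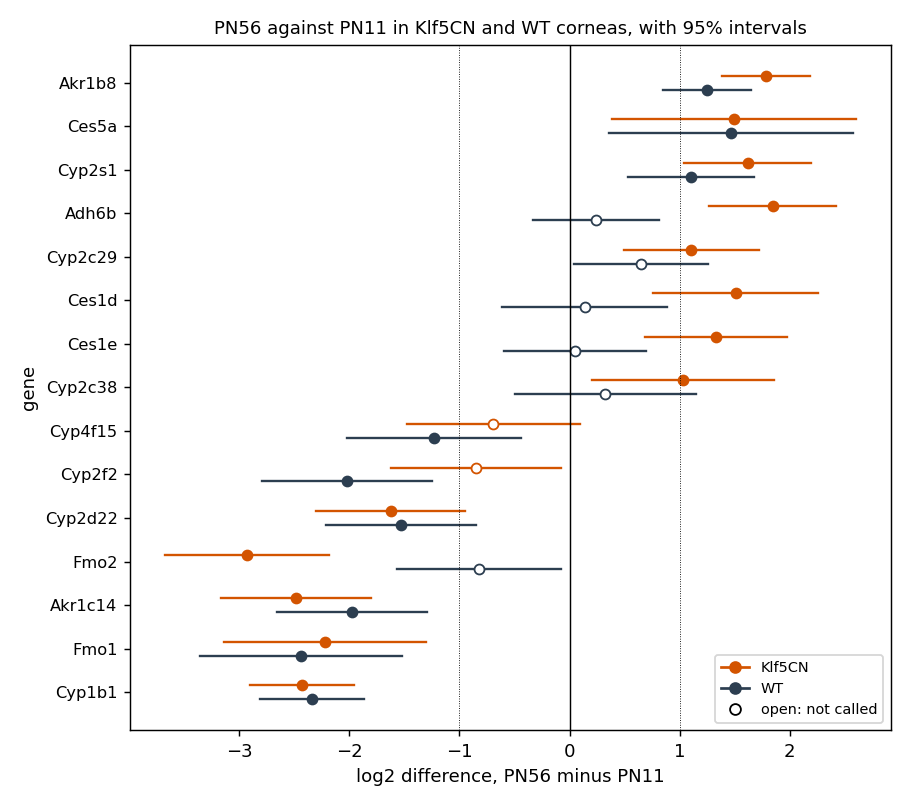
Difference between PN56 and PN11 (x axis, log2) in Klf5CN (orange) and WT (dark) for the 15 phase I genes called in either genotype (y axis). Points are differences of group means, lines their 95% intervals, open points did not pass, and dotted lines mark 2-fold. Cyp1b1, Fmo1, Akr1c14 and Cyp2d22 lie to the left for both genotypes, and Adh6b, Ces1d and Ces1e lie near 0 in WT.

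Other genes of the pathway were described from lists. Of 7 tested electron partners of the P450s (P450 oxidoreductase Por and the cytochrome b5 genes among them), 0 passed in either Klf5CN comparison, with a median of -0.09 at PN11 and -0.19 at PN56. Of 16 xenobiotic receptors and regulators, Ppara, the fatty acid receptor, was lower by -1.47 (limma, adjusted p = 0.00463) and Arnt2 higher by 1.23 (adjusted p = 0.00305) at PN11, and 0 passed at PN56. The Nrf2 targets did not move together: Nqo1, a quinone reductase, was -1.29 and -1.04 at PN11 and PN56, while Hmox1, haem oxygenase, was 1.65 and 1.22, all called.

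Phase II genes were lower where they passed. Of 28 tested conjugation enzymes, 6 were lower and 0 higher at PN11, beside 1.48% and 3.80% of all genes tested, and 2 were lower and 0 higher at PN56, beside 1.63% and 7.10%. The glutathione transferases Gsta3 (-1.67) and Gsta2 (-1.14) and the related prostaglandin D synthase Hpgds (-1.68) were among them at PN11, and Gsta2 (-1.27) and Gstt2 (-1.26) at PN56. Of 19 aldehyde dehydrogenases, which take over the products of Adh enzymes, 0 passed at PN11, and at PN56 3 were lower and 1 higher: Aldh1a1, a retinal dehydrogenase, was -2.01 (adjusted p = 0.000809) and Aldh1a7 -1.44 (adjusted p = 0.00233). Aldh3a1, the abundant corneal crystallin, gave 0.08 (adjusted p = 0.904) at PN11 and 0.20 (adjusted p = 0.550) at PN56. Cbr2, a carbonyl reductase, was -1.03 at PN11 (adjusted p = 0.00638), and the effect at PN56 was higher than that by 1.31 (adjusted p = 0.0428). Of 14 tested genes of other P450 families, 0 passed at PN11, and at PN56 the thromboxane synthase Tbxas1 was 1.51 and Cyp17a1 -1.36. Of 21 other oxidases and carbonyl reductases, 1 was lower at PN11 and 2 were higher at PN56, where 7.10% of all genes tested were higher. Of 6 other esterases, 1 was lower at PN11 (Notum, -1.59) and 0 passed at PN56.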

How the data were processed

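RNA from both corneas of each mouse was hybridised to 14 one-colour arrays of 45101 probe sets. The authors computed the deposited signal intensity of each probe set with GCOS 1.4, and the trimmed mean of each array was 150. The 3 deposited columns that hold comparisons by the authors were not used. Signals under 10 were set to 10 and taken to log2, and probe sets above 20 on at least 3 arrays were tested (29416). All 4 groups entered 1 limma fit with an intensity trend (limma 3.58.1, R 4.3.3), with Benjamini-Hochberg adjustment over all tested probe sets. Only probe sets with 1 symbol stood for a gene, and of several tested ones the brightest on average was taken. Scripts ran in Python 3.11.15. Microarrays give no counting depth, and the number of arrays limits the precision.

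Named genes were those called in a comparison, the member of each family with the highest mean signal, genes named by the study, genes whose probe sets disagreed by over 1, and up to 3 called genes of each related list. Akr1b7, which the study lists as lower in Klf5CN at PN11, has no probe set with 1 symbol here and is not covered. The members and the lists were chosen with earlier results of these data known. In simulated arrays, 88 of 100 probe sets changed 3-fold and 98 of 100 changed 6-fold were called for the PN11 comparison, with 2 false calls among 29416 probe sets. The changed probe sets were drawn from those averaging above 6 on the log2 scale, and no floor was applied. These rates therefore do not cover genes near the floor, such as Cyp2b19 and Ces1e. Alternatives covered normalization, floor, filter, scale, fit, covariate, threshold, probe set, replicate block and leaving out arrays. Of 126 probe sets of phase I genes, 64 were tested. A further 5 probe sets carried several gene symbols and were left out of the counts, so that Akr1c12 and Akr1c13 are only partly separated.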

Additional observations from a re-analysis of the deposited data

Results flagged for a closer look

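In 8 of the 92 sets of 4 arrays that the 46 tested genes form at PN56, the highest or lowest array stood apart from the other 3 by Dixon's criterion, which chance meets in about 1 of 20 sets. In PN56 Klf5CN, replicate 3 was the array that stood apart for Cyp3a13 (highest, 9.38), Ephx2 (highest, 8.64) and Ces5a (lowest, 5.62), and replicate 4 for Cyp4f39 (highest, 4.90). In PN56 WT, replicate 1 stood apart for Cyp2j9 (6.24), replicate 2 for Cyp1a1 (4.10), replicate 3 for Cyp4f18 (3.98) and replicate 4 for Cyp2s1 (9.60), each as the highest array. The other 3 arrays were at the floor for Cyp4f39 and for Cyp4f18.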

How the results depend on the processing

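Of 1082 values of named genes under alternatives, most (985) kept their direction and side of the threshold, 91 lost the call, 6 gained one and 0 reversed. Leaving out single arrays gave, at PN11, 0 to 2 higher and 5 to 11 lower genes, and at PN56, 2 to 3 and 5 to 12. For PN56 against PN11 it gave 6 to 9 higher and 5 to 7 lower in Klf5CN, and 1 to 3 and 5 to 9 in WT. For the interaction it gave 0 to 1 in either direction. At PN11, 1 gene was higher with array medians subtracted, signals under 32 set to 32, no filter, only the groups compared, the Actb ratio as covariate or the study's rule without its pairwise calls (1 each), and without a filter 5 were lower. At PN56, 1 was higher with signals under 32 set to 32, a filter at 64 or only the groups compared, 4 were higher and 10 lower without Klf5CN replicates 3 and 4 (picked after their values were seen, so the gain can follow from the choice), and 13 were lower with array medians subtracted, which moved the median of all genes by -0.23. With no minimum fold, 7 were higher and 10 lower with age in WT. In Klf5CN, 4 were higher with age with signals under 32 set to 32, 5 with log2 of signal plus 16 or a filter at 64, and 8 were lower with every probe set counted (added later). The interaction had 1 lower gene with the Actb covariate, with signals under 32 set to 32, and after either other normalization (quantile, or subtraction of array medians). The causes were not tested. With the replicate number as a block, the interaction had 1 lower gene and no other count left its range of 1.5 times. Same-numbered Klf5CN and WT arrays did not deviate together (r from -0.20 to 0.09). Such correlations cannot exclude that equal numbers mark littermates, so whether the numbers pair mice is not known.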

Other observations

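The probe sets with several symbols held a further large difference. A probe set shared by Cyp2a5 and Cyp2a4, mouse enzymes that hydroxylate coumarin and steroids, averaged 7.53 ± 0.74 in Klf5CN and 10.54 ± 0.18 in WT at PN11 (SD, n = 3 each), a difference of -3.01 (limma, adjusted p = 9.63e-05). At PN56 the difference was -1.06 (adjusted p = 0.0156). The PN56 minus PN11 difference was -2.73 in Klf5CN (adjusted p = 6.72e-06) and -4.67 in WT (adjusted p = 4.61e-08), and the difference of the Klf5CN effects, 1.94, missed the threshold (adjusted p = 0.0584). The 2 genes cannot be told apart on it. A probe set shared by Akr1c12 and Akr1c13 gave -1.64 at PN11 (adjusted p = 0.00334) and -1.40 at PN56 (adjusted p = 0.00140), beside -1.29 and -1.31 on the probe set of Akr1c13 alone.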
